A study of Mus musculus with 21 samples.

Results

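The minichromosome maintenance (MCM) family was described from the RNA-seq expression table of mouse germ cells, in which the rows named Mcm2, Mcm3, Mcm4, Mcm5, Mcm6, Mcm7, Mcm8, Mcm9 and Mcm10 were taken, 9 of 37620 genes. All 9 were present, and all 9 passed the filter on low values, a 4-sample mean of 0.1 FPKM or more (sequenced fragments scaled to the length of the transcript and the size of the library) that left 20795 genes to be tested. The study mapped binding sites of the meiotic protein PRDM9 and used RNA-seq to relate the usage of recombination hotspots to gene expression. Its RNA came from germ cells enriched by enzymatic digestion from testes of C57BL/6J mice at 12 days post-partum, when early meiosis is under way. There was 1 strain, 1 age and no treatment, so the only division was among 4 samples, named 186wt, 343wt, 444wt and 456wt, and each had 3 columns of values, called libraries here. The series held 21 samples, and the others (ChIP-seq, Affinity-seq and input DNA) were not analysed here. The depth estimated from the table was 12.97 to 18.06 M (mega) fragments per library. The 3 libraries of a sample differed little in the members, with mean CVs of 1.07% to 5.38% beside estimated counting errors of 1.40% to 4.67%. The CV was below the counting error in Mcm3, Mcm6 and Mcm9 and above it in the other members, as in Mcm10 (5.02% beside 3.02%). The study describes 4 replicates, so each sample counts once and errors are SDs over n = 4 samples.

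MCM2 to MCM7 form the ring-shaped replicative helicase. In G1 phase the origin recognition complex, CDC6 and CDT1 load it onto DNA as an inactive double ring, a step called licensing, and the kinase CDC7-DBF4, CDC45 and the GINS complex later turn it into the active helicase that opens the fork. MCM8 and MCM9 are related ATPases that form a complex of their own, act in repair by homologous recombination and are needed for normal gametogenesis in mice, whereas MCM10 is an unrelated protein by fold that helps the loaded helicase to fire. Germ cells at this age divide by mitosis as spermatogonia, replicate their DNA before meiosis and then begin to recombine it.

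The 9 genes were placed in NCBI build 37 with the GENCODE M1 annotation, and all are protein-coding. Mcm3 (chr1:20793055-20810359, minus strand) and Mcm6 (chr1:130228168-130256233, minus) share chromosome 1, and Mcm10 (chr2:4910760-4933837, minus) and Mcm8 (chr2:132641877-132669933, plus) share chromosome 2. Mcm7 is at chr5:138605811-138613650 (minus), Mcm2 at chr6:88833469-88848774 (minus) and Mcm5 at chr8:77633427-77652338 (plus). Mcm9 is at chr10:53256135-53350245 (minus) and Mcm4 at chr16:15623990-15637493 (minus). The subunits of the ring are annotated as proteins of 719 (MCM7) to 904 (MCM2) amino acids, MCM8 as 805, MCM10 as 885 and MCM9, which carries a long extra carboxy-terminal part, as 1290. Mcm4, Mcm7 and Mcm8 start head to head with other genes, Prkdc 466 bp away, Ap4m1 420 bp away and Trmt6 86 bp away. On opposite strands, the span of Mcm7 overlaps that of Ap4m1 by 421 bp and that of Cops6 by 64 bp, and the spans of Mcm9 and Asf1a overlap by 12253 bp. Reads from any shared exonic bases could not be told apart unless strand was used, and the strand setting is not given in the sources used here.

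The promoters of the licensing genes are known targets of E2F transcription factors, which bind words of the kind searched here and switch on genes for S phase. The RefSeq promoter windows of GRCm38.p6, from 250 bases before to 50 bases after the start, covered 8 of the 9 members (Mcm7 with 2 starts). They were searched on both strands for the words TTTGGCGC, TTTCGCGC, TTTCCCGC and TTTGCCGC, and words on opposite strands could overlap. Of all 32851 windows, 744 or 2.26% held at least 1 of the words, and of the 15222 windows of genes tested, 3.50% did. Of the 5 licensing genes with a window, 4 held a word, namely Mcm3, Mcm5, Mcm6 and the upstream start of Mcm7, while the window of Mcm2 had none. Mcm8 had 1 word, and the windows of Mcm9 and Mcm10 had none. The letters show no more than that the words are or are not in these windows. The windows below set 2 ring subunits beside both recombination paralogs, 5' to 3' in the direction of transcription, with the words in capitals.
Mcm5 (chr8:75109259-75109558, plus strand): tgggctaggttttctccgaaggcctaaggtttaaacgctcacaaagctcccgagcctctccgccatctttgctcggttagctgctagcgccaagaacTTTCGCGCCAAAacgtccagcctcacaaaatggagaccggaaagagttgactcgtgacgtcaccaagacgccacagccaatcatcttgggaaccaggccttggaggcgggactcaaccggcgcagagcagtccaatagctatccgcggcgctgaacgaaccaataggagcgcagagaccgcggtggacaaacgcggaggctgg
Mcm6 (chr1:128359656-128359955, minus strand): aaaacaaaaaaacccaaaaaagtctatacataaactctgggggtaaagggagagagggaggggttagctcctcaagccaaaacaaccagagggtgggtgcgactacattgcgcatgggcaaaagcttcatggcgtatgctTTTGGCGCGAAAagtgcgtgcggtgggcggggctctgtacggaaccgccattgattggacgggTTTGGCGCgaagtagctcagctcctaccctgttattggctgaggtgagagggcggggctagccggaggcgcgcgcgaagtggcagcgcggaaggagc
Mcm8 (chr2:132815891-132816190, plus strand): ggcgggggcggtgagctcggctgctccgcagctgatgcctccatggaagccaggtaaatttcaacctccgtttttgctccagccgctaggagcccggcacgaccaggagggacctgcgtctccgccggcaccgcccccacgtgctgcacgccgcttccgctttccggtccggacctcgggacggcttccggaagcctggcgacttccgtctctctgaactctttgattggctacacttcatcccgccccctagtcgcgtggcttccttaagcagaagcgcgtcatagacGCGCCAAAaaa
Mcm9 (chr10:53629908-53630207, minus strand): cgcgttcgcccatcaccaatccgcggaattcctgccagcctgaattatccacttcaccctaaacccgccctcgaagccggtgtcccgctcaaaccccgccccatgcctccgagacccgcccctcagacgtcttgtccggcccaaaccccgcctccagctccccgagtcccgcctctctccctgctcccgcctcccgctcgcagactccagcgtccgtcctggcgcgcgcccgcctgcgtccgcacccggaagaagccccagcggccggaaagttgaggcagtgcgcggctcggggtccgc
In Mcm5 the words TTTCGCGC and, on the other strand, TTTGGCGC overlapped between bases -153 and -142 from the start. In Mcm6 the same pair overlapped between -110 and -99, and TTTGGCGC came again at -47 to -40. In Mcm8 the word TTTGGCGC lay on the other strand after the start, at 40 to 47. The window of Mcm9 was the richest of the members in G and C (70.0%) and held 35 CpG, more than in 93.0% of all windows, whereas those of Mcm3 (48.7% G and C, 8 CpG) and Mcm10 (10 CpG) were the poorest.

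The licensing helicase was abundantly transcribed and its 6 subunits lay close together, while Mcm10, Mcm8 and Mcm9 were several-fold lower. FPKM is scaled by transcript length, so levels were set side by side between genes. How far the choice among annotated transcripts (10 each for Mcm7 and Mcm10) affects a level was not tested. Mcm7 was the highest, with 75.7 FPKM in 186wt, 86.3 in 343wt, 115.9 in 444wt and 106.9 in 456wt, a mean of 96.2 ± 18.4 FPKM (SD, n = 4). Mcm5 had 63.0, 63.7, 94.4 and 82.8 FPKM in the same order of samples, with a mean of 76.0 ± 15.3. Mcm2 had 59.6, 62.0, 92.2 and 87.6 FPKM (75.4 ± 16.9). Each of these 3 genes was lowest in 186wt and highest in 444wt, and in each the values of 186wt and 343wt lay below those of 444wt and 456wt. Mcm6 had 58.0, 64.4, 90.0 and 83.4 FPKM (73.9 ± 15.2). Mcm3 had 58.5, 63.2, 83.0 and 82.1 FPKM (71.7 ± 12.7). Mcm4 was the lowest ring subunit, with 35.2, 38.6, 53.7 and 49.5 FPKM (44.2 ± 8.80). These 3 subunits had the same order of samples as the first 3, so the order 186wt, 343wt, 456wt, 444wt held for all 6 genes. All 6 were in the top quartile of the genes tested, which began at 21.1 FPKM, and were higher than 88.8% (Mcm4) to 96.3% (Mcm7) of the genes tested.

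Mcm10, the firing factor, had 13.1, 12.9, 18.7 and 16.7 FPKM (15.3 ± 2.81, SD, n = 4). Mcm8 had 12.9, 11.2, 18.3 and 14.5 FPKM (14.2 ± 3.02). Mcm9 was the lowest member, with 6.02, 6.27, 6.96 and 5.98 FPKM (6.31 ± 0.454). None of these 3 was in the top quartile, and Mcm9 stood near the middle of the table, above 53.1% of the genes tested, whose median was 5.01 FPKM. The samples also varied least in Mcm9, where the SD was 7.20% of the mean against 17.7% to 22.5% in the other members. Mcm9 was read from an estimated 367 to 549.5 fragments per library, for which counting alone gives an error of about 4.67%, whereas the ring subunits had 1672 to 5977 fragments.

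**Figure D1:**
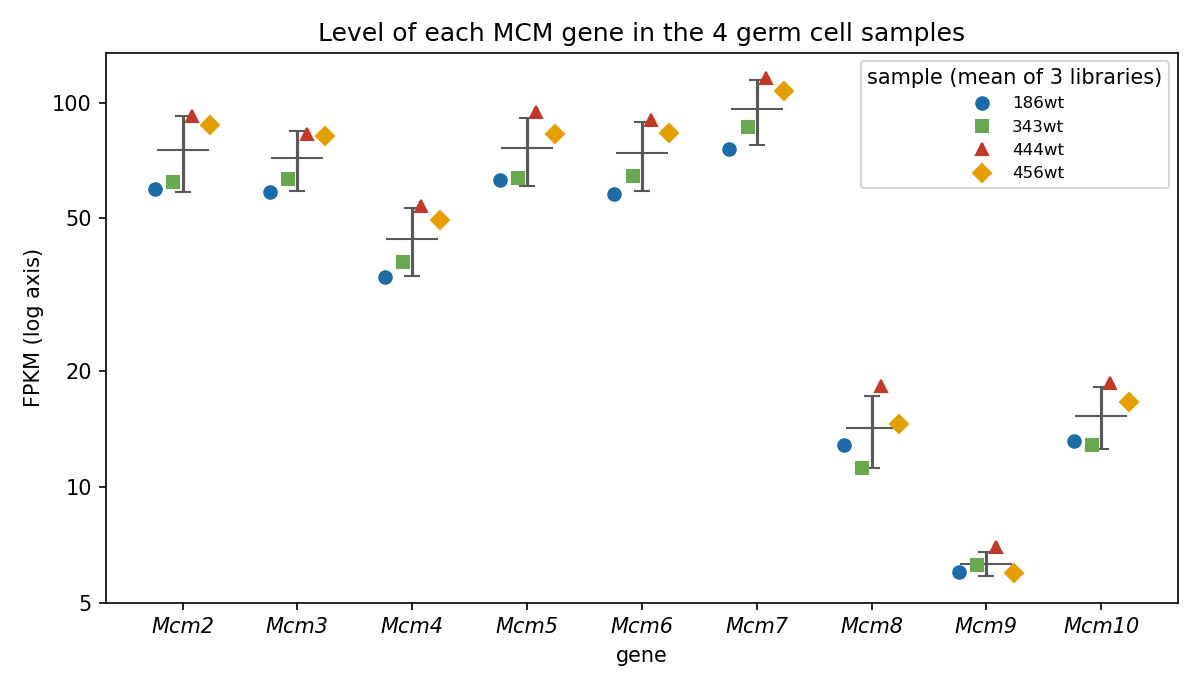
FPKM (log axis) of each MCM gene in the samples 186wt, 343wt, 444wt and 456wt, each point the mean of 3 libraries, with bars for the mean ± SD of the 4 samples. Mcm2 to Mcm7 sit at 35.2 to 115.9 FPKM, Mcm8 and Mcm10 at 11.2 to 18.7 and Mcm9 at 5.98 to 6.96.

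The order of the levels from Mcm7 to Mcm9 was firm at some steps and not at others. Mcm7 exceeded Mcm5 in 4 of 4 samples, by 20.2 ± 5.13 FPKM. Mcm5, Mcm2, Mcm6 and Mcm3 could not be put in order, because the difference between each and the next (0.630, 1.42 and 2.28 FPKM) was smaller than its SD over the samples (3.68, 2.80 and 3.26 FPKM) and each step turned in 1 of the 4 samples. Mcm4 lay below Mcm3 in 4 of 4 samples, by 27.4 ± 4.26 FPKM, and above Mcm10 by 28.9 ± 6.08 FPKM, and neither step had overlapping ranges. Mcm10 exceeded Mcm8 in 4 of 4 samples, but by only 1.12 ± 0.931 FPKM, and their ranges overlapped. Mcm8 exceeded Mcm9 in 4 of 4 samples, by 7.91 ± 2.70 FPKM, without overlap. With 4 samples a two-sided exact sign-flip test cannot go below a p of 1 in 8, so no test was made of these steps.

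The make-up of the ring message was nearly the same in every sample. The highest subunit, Mcm7, was 2.15 times the lowest, Mcm4, in 186wt, 2.24 times in 343wt, 2.16 times in 444wt and 2.16 times in 456wt (2.18 ± 0.0411, SD, n = 4). Within a sample Mcm4 was 60.3%, 61.2%, 60.9% and 60.4% of the mean of the 6 subunits (60.7% ± 0.423). Mcm7 was 129.8%, 136.9%, 131.4% and 130.2% of it (132.1% ± 3.30). The share of Mcm4 thus moved by less than 1 percentage point over samples in which its own level moved 1.53-fold. The other 4 subunits stayed between 94.1% (Mcm3 in 444wt) and 108.1% (Mcm5 in 186wt), and within a sample the highest of them was 1.04 to 1.14 times the lowest. The ring itself holds 1 copy of each protein.

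**Figure D2:**
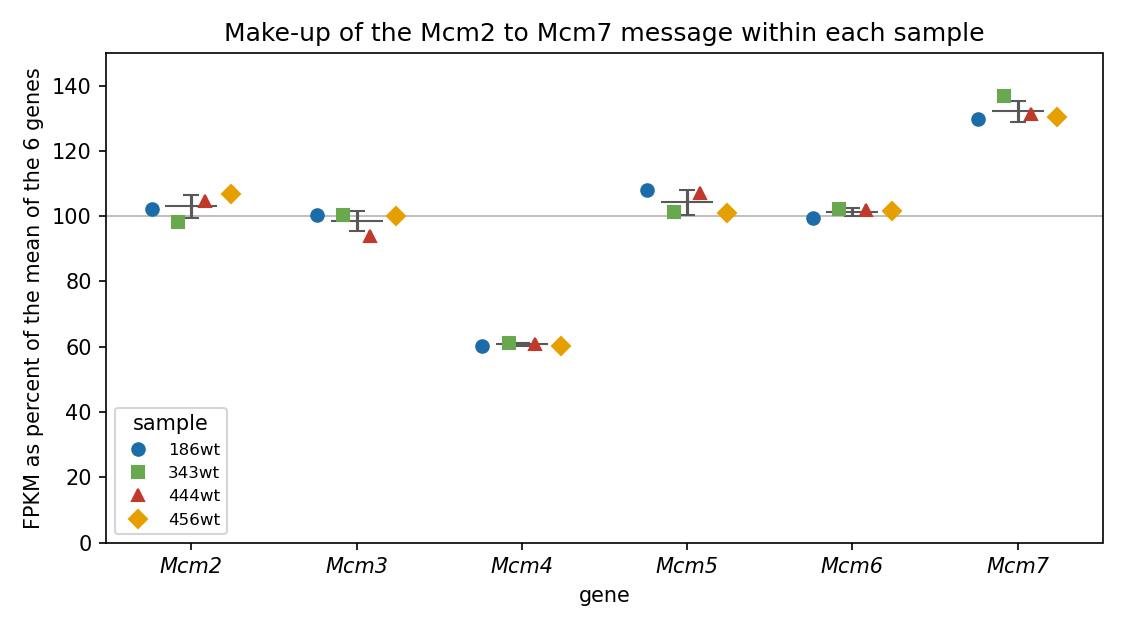
FPKM of each ring subunit as a percentage of the mean of the 6 subunits in the same sample, with bars for the mean ± SD of 4 samples. Mcm4 lies at 60.3% to 61.2%, Mcm7 at 129.8% to 136.9% and the other 4 subunits near 100%.

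The licensing helicase was then set against the recombination paralogs within each sample. On the log2(FPKM + 0.1) scale the mean of Mcm2 to Mcm7 exceeded Mcm8 by 2.14 in 186wt, 2.44 in 343wt, 2.23 in 444wt and 2.45 in 456wt, a mean difference of 2.31 ± 0.158 (SD, n = 4), or 4.98-fold. It exceeded Mcm9 by 3.22, 3.27, 3.61 and 3.72 (3.46 ± 0.247), or 11.0-fold. Both differences had the same sign in 4 of 4 samples and were many times their SD. Even the lowest ring subunit was 2.73 to 3.44 times Mcm8 and 5.85 to 8.29 times Mcm9 in FPKM. Against Mcm10 the difference was 2.11, 2.25, 2.20 and 2.26 on the log2 scale (2.20 ± 0.0683), the steadiest of the 3. Mcm8 exceeded Mcm9 by 1.08, 0.83, 1.38 and 1.27 (1.14 ± 0.24), or 2.20-fold. No p-value was computed for these scores over chosen genes.

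The 2 paralogs did not keep the same distance from the ring in all samples. The difference to Mcm9 was 3.20 to 3.25 over the libraries of 186wt and 3.24 to 3.30 over those of 343wt, but 3.56 to 3.64 in 444wt and 3.61 to 3.85 in 456wt, so neither of the first 2 samples overlapped either of the last 2. In ratios of FPKM the mean ring subunit was 9.69 and 10.1 times Mcm9 in 186wt and 343wt, and 12.7 and 13.7 times in 444wt and 456wt. The difference to Mcm8 was ordered in another way, lower in 186wt (2.01 to 2.32 over its libraries) and 444wt (2.17 to 2.27) and higher in 343wt (2.37 to 2.49) and 456wt (2.43 to 2.47). The libraries of 186wt overlapped those of 444wt, and those of 343wt overlapped those of 456wt. Neither of the first pair overlapped either of the second, though 2.32 in 186wt came close to 2.37 in 343wt. These ranges over libraries may be technical and do not measure the spread between samples. How often other genes part in this way was not computed, and 58.2% of all genes tested differed between the samples in the test given below. The paralogs also parted from each other, with Mcm8 at 1.79 times Mcm9 in 343wt and 2.62 times in 444wt.

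**Figure D3:**
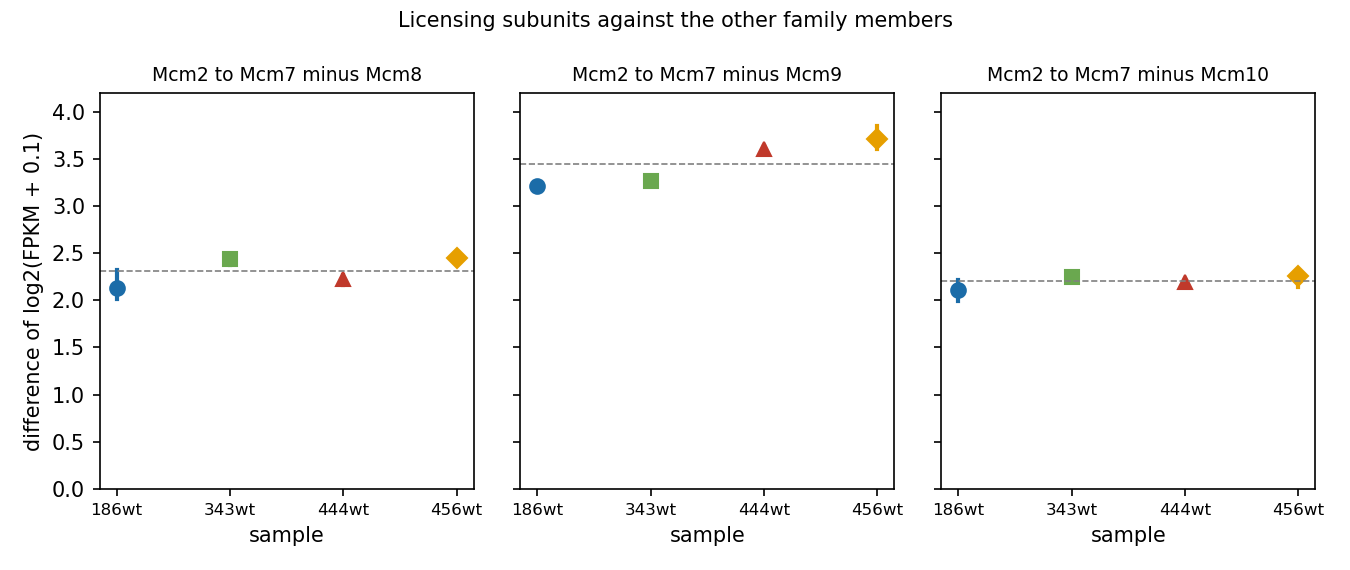
Mean log2(FPKM + 0.1) of Mcm2 to Mcm7 minus that of Mcm8, Mcm9 or Mcm10 in each sample (points), with the range over its 3 libraries (vertical lines) and the mean of the 4 samples (dashed). The difference to Mcm9 is 3.22 and 3.27 in 186wt and 343wt but 3.61 and 3.72 in 444wt and 456wt, and that to Mcm10 stays between 2.11 and 2.26.

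Whether the levels differed between the samples was tested with limma over all 20795 genes, with the libraries as units, so that the p-values measure the spread between libraries, which may be technical. All 9 members differed between the 4 samples at an adjusted p under 0.05, where 58.2% of all genes tested did, so most genes passed this test. The 6 ring subunits had ranges between their highest and lowest sample of 0.50 (Mcm3, limma adjusted p = 1.3e-09) to 0.63 (Mcm6, 8.2e-10) on the log2 scale. Mcm8 had a range of 0.70 (limma adjusted p = 3.5e-05) and Mcm10 of 0.53 (3.4e-05), while the median range of all genes tested was 0.55. Mcm9 had a range of 0.22 (limma adjusted p = 0.034), and its call was the only one of the 9 that depended on the setting. It was lost in 9 of 24 alternatives, among them the libraries rescaled to their median ratio (limma adjusted p = 0.062). Without library 1 or 3 of 186wt the limma adjusted p was 0.052 and 0.056. Without library 1 of 343wt it was 0.0502, and without library 1, 2 or 3 of 444wt it was 0.13, 0.081 and 0.069. Without all of 186wt or all of 444wt it had an adjusted p of 0.051 and 0.64 in limma.

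The direction of the differences was read from the 6 pairs of samples in the same limma fit, adjusted over genes and pairs. The first 4 pairs set 444wt and 456wt each against 186wt and 343wt, and they share samples, so they are not independent. In 444wt against 186wt all 9 members were higher, where 25.6% of all genes tested were higher and 16.1% lower. In 444wt against 343wt 8 members were higher (29.3% of genes higher, 17.0% lower), with Mcm9 not called. In 456wt against 186wt 7 were higher (25.3% higher, 15.3% lower), with Mcm8 and Mcm9 not called. In 456wt against 343wt 8 were higher (27.0% higher, 13.9% lower), again without Mcm9. No member was lower in any of these 4 pairs, and the 6 ring subunits were higher in all 4. In bulk samples, more cells of a type and more RNA per cell cannot be told apart.

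The size of these differences was alike among the ring subunits. In 444wt against 186wt they were higher by 0.50 ± 0.018 (Mcm3, SE) to 0.63 ± 0.020 (Mcm6) on the log2 scale, or 1.42-fold to 1.55-fold. Over the 4 pairs their medians were 0.61 and 0.48 in 444wt (against 186wt and 343wt) and 0.50 and 0.37 in 456wt. The whole table leaned the same way, since the median log2 difference of all genes tested was 0.10 and 0.14 in 444wt and 0.08 and 0.11 in 456wt. Beyond that shift the ring subunits were still higher by 0.41 to 0.54 in 444wt against 186wt and by 0.19 to 0.39 in 456wt against 343wt, the pairs with the largest and smallest differences. When the libraries were rescaled to their median ratio, the share of higher genes among those called fell from 61.4% to 48.3% in 444wt against 186wt, from 63.3% to 48.9% in 444wt against 343wt, from 62.4% to 51.0% in 456wt against 186wt and from 66.0% to 51.1% in 456wt against 343wt. The ring subunits nevertheless remained higher in 24 of 24 subunit and pair combinations, by 0.22 to 0.55. Rescaled to the sum without mitochondrial genes, they were higher in 24 of 24, by 0.27 to 0.58, and the share of higher genes among those called was 53.9%, 59.8%, 52.5% and 59.9% in the same order of pairs.

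Mcm10 was called higher in the same 4 pairs as the ring subunits, though it was lowest in 343wt and they were lowest in 186wt. It was higher by 0.50 ± 0.062 (SE) and 0.53 ± 0.062 in 444wt, and by 0.34 ± 0.062 and 0.37 ± 0.062 in 456wt, against 186wt and 343wt. Mcm8 showed the widest swing, 0.70 ± 0.071 in 444wt against 343wt (limma adjusted p = 1.2e-05), and was called higher by 0.51 ± 0.071 in 444wt against 186wt and by 0.37 ± 0.071 in 456wt against 343wt. In 456wt against 186wt it differed by 0.18 ± 0.071, which missed the threshold (limma adjusted p = 0.071). Mcm9 differed by 0.21 ± 0.063 in 444wt against 186wt (limma adjusted p = 0.023), and this call was lost under both rescalings, with differences of 0.13 and 0.16 and limma adjusted p-values of 0.15 and 0.073. In the other 3 of these pairs it differed by 0.15, -0.01 and -0.07, none of them called, and beyond the shift of all genes by 0.01, -0.09 and -0.18. That one gene passed and another did not is no test of the difference between them, for which the distances from the ring above are given without one.

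The remaining 2 pairs set 343wt against 186wt and 456wt against 444wt. In 343wt against 186wt 4 members were higher, namely Mcm3, Mcm4, Mcm6 and Mcm7, by 0.11 to 0.19, and none was lower (11.7% of genes higher, 12.4% lower). Mcm8 had the opposite sign, -0.19 ± 0.071, which just missed the threshold (limma adjusted p = 0.054), and was called lower, by 0.22, when scaled without mitochondrial genes (limma adjusted p = 0.035). In 456wt against 444wt 7 members were lower and none higher (14.1% of genes lower, 15.8% higher), with Mcm3 and Mcm10 not called. The largest of these was Mcm8, at -0.33 ± 0.071 (limma adjusted p = 0.0036), and the ring subunits called lower were between -0.07 (Mcm2, limma adjusted p = 0.043) and -0.19 (Mcm5). The call of Mcm2 in this pair was lost when adjusted within the pair (limma adjusted p = 0.055) or rescaled to the median ratio (limma adjusted p = 0.10).

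**Figure D4:**
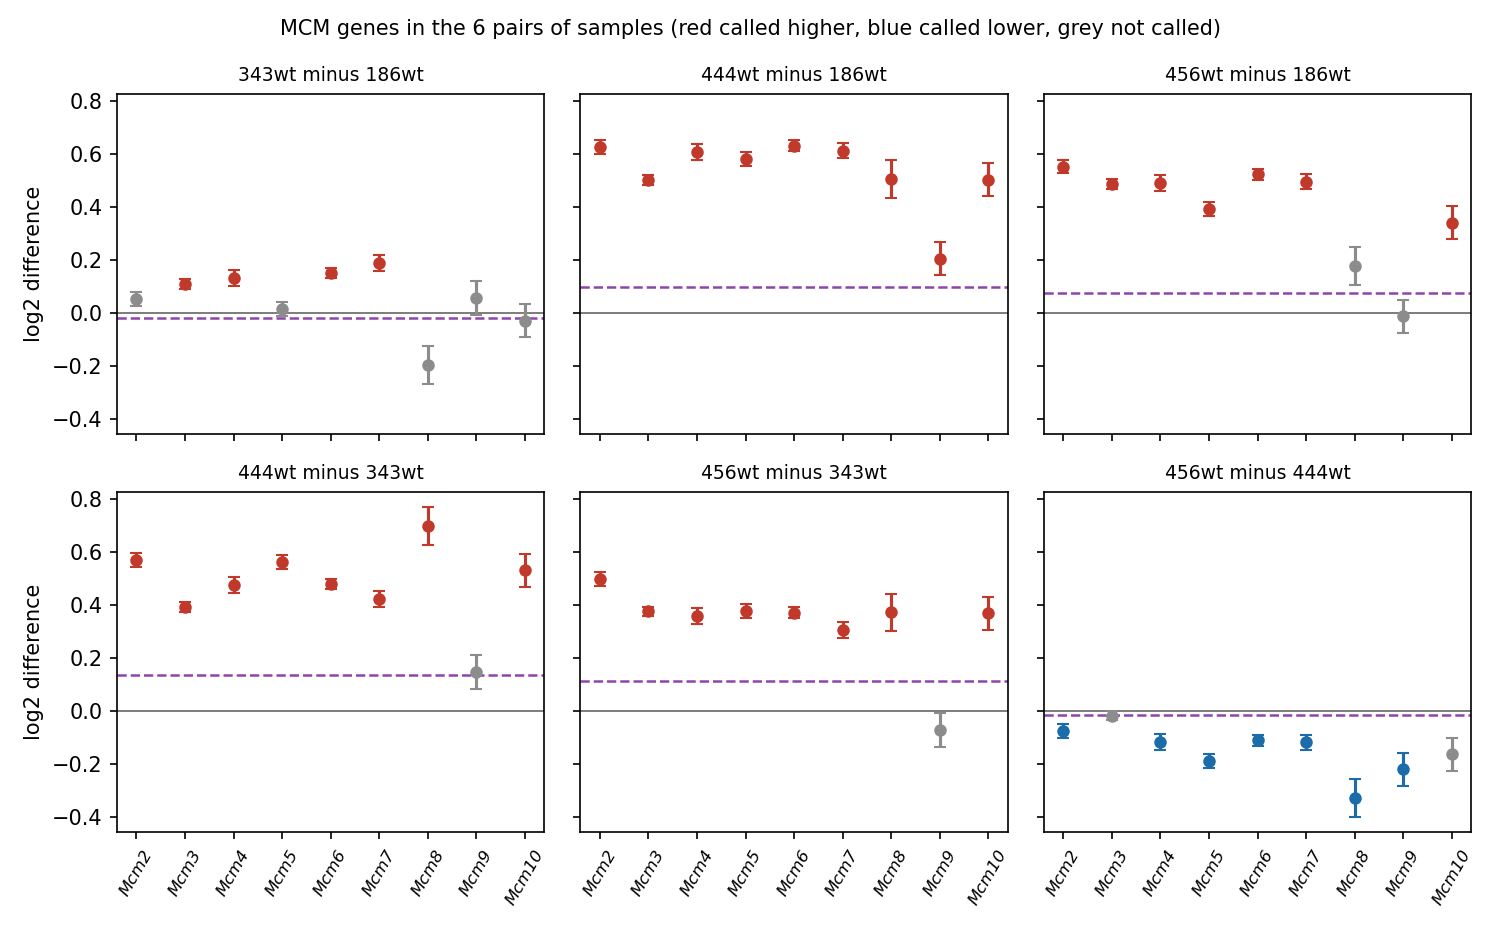
Log2 difference of each MCM gene in the 6 pairs of samples, with bars for the SE of the limma fit and a dashed line for the median of all genes tested. Mcm2 to Mcm7 lie between 0.31 and 0.63 in the 4 pairs of 444wt or 456wt against 186wt or 343wt, where Mcm9 lies between -0.07 and 0.21.

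The machinery around the helicase varied in the same samples. Of the 10 genes of origin recognition and helicase loading, all 10 differed between the samples (58.2% of all genes tested), with a median level of 27.4 FPKM. In 444wt 8 of 10 were higher than in 186wt and 9 of 10 higher than in 343wt (25.6% and 29.3% of all genes tested), and in 456wt 7 and 7 were (25.3% and 27.0%), with 1 lower than in 186wt. Their median log2 differences in these pairs, 0.37, 0.37, 0.29 and 0.30, stood beside 0.10, 0.14, 0.08 and 0.11 for all genes tested. Mcmbp, which binds MCM subunits and helps their assembly, was the highest at 68.9 ± 8.86 FPKM, close to the ring subunits themselves. Orc5, a subunit of the origin recognition complex, was the lowest at 13.7 ± 1.65 FPKM. The loading factor Cdt1 had the smallest limma adjusted p (7.4e-08), with 22.8, 24.2, 34.6 and 34.4 FPKM in 186wt, 343wt, 444wt and 456wt.

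All 15 genes of helicase activation differed between the samples, where 58.2% of all genes tested did. Higher in 444wt against 186wt, 444wt against 343wt, 456wt against 186wt and 456wt against 343wt were 25.6%, 29.3%, 25.3% and 27.0% of all genes tested, the shares against which these counts are to be read. In 444wt all 15 were higher than in 186wt and all 15 higher than in 343wt, and in 456wt 10 and 14 were, with none lower. Their medians in these pairs were 0.45, 0.51, 0.21 and 0.29. Tipin, of the fork protection complex, was the highest at 52.1 ± 10.4 FPKM and Ticrr, which helps CDC45 to join the helicase, the lowest at 5.97 ± 1.18 FPKM. Wdhd1, which links the helicase to the primase, had the smallest limma adjusted p (1.1e-09), with 35.7, 37.5, 53.6 and 52.9 FPKM. Of the 20 genes of the replication fork, 18 differed between the samples. In 444wt 18 were higher than in 186wt and 18 higher than in 343wt, and in 456wt 16 and 15 were, with none lower. Their medians were 0.42, 0.37, 0.36 and 0.32. The sliding clamp Pcna was the highest at 105.8 ± 15.5 FPKM, Pole2, a subunit of polymerase epsilon, the lowest at 7.51 ± 0.685 FPKM and not called (limma adjusted p = 0.15), and Rpa2, of the single-strand binding complex, had the smallest limma adjusted p (1.9e-08). Of 15 other proliferation genes 13 differed, and in 444wt 13 were higher than in 186wt and 14 higher than in 343wt. In 456wt 12 were higher and 1 lower than in 186wt, and 13 were higher than in 343wt. The medians in these pairs were 0.52, 0.43, 0.44 and 0.36. Top2a, which untangles DNA, was both the highest, at 105.3 ± 20.4 FPKM, and the one with the smallest limma adjusted p (7.9e-10). The cyclin gene Ccne1 was the lowest at 9.84 ± 1.13 FPKM and was not called (limma adjusted p = 0.066).

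Genes on the side of Mcm8 and Mcm9 were at the level of the paralogs and less uniform. Hrob, which recruits MCM8-MCM9 and was taken here to be the row BC030867, had 9.49, 9.18, 12.2 and 12.1 FPKM (10.8 ± 1.65), between Mcm8 and Mcm9. Mcmdc2, a divergent relative of the family needed in meiotic recombination, had 5.21, 3.67, 4.76 and 3.78 FPKM (4.36 ± 0.751), below Mcm9 in each sample, and unlike any member it was highest in 186wt. Both differed between the samples (limma adjusted p = 0.0022 and 0.0021). All 16 meiotic recombination genes differed too (58.2% of all genes tested), with a median level of 8.89 FPKM against 74.7 FPKM for the ring. In 444wt 13 were higher than in 186wt and 16 higher than in 343wt (25.6% and 29.3% of all genes tested), and in 456wt against 343wt 10 were higher and none lower (27.0% and 13.9%). In 456wt against 186wt 7 were higher and 7 lower (25.3% and 15.3%), and in 343wt against 186wt 1 was higher and 7 lower (11.7% and 12.4%). In the last 2 pairs Mcm8 was not called. The highest of them was Tex11, an X-linked gene needed for crossovers, at 44.6 ± 8.31 FPKM, which also had the smallest limma adjusted p (4.5e-08), and the lowest was Mei4, needed for double-strand breaks, at 3.38 ± 0.990 FPKM.

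Markers of cell types also differed between the samples, but not all lists in the pattern of the ring subunits. All 11 spermatogonial and all 12 meiotic prophase markers passed the filter, as did 20795 of all 37620 genes. All 9 Sertoli markers found, all 6 Leydig, all 5 peritubular myoid, all 5 macrophage and all 5 endothelial markers passed it as well. Passing the filter therefore does not tell these cell types apart. Of the 8 later meiotic and spermatid markers 5 passed. Of these Ldhc had 5.96, 7.42, 1.84 and 13.5 FPKM and the next, Tnp1, averaged 0.960 FPKM, while Pgk2 and Acrv1 were under 0.1 FPKM on average and Prm2 was listed at 0. The summed level of the spermatogonial markers was 272 to 283 FPKM over the libraries of 186wt, 294 to 301 in 343wt, 428 to 439.5 in 444wt and 371 to 372 in 456wt. The sum thus had the order of the ring subunits, but Stra8 weighed most in it (102.7 FPKM on average) and not all 11 markers had that order. In 456wt against 444wt 3 were called higher and 5 lower (15.8% and 14.1% of all genes tested). Etv5 was highest in 343wt (16.7 FPKM) and Kit was lowest there (34.5 FPKM). The summed level of the meiotic prophase markers was 797 to 810.2, 576 to 586, 919 to 940.1 and 802 to 814 FPKM, lowest in 343wt as Mcm8 was. The 9 Sertoli cell markers matched of 10 ran the other way, at 4385 to 4413, 4546 to 4578, 2540.4 to 2554 and 2696 to 2726 FPKM, so Sertoli markers were present in every sample and higher in 186wt and 343wt. None of the 9 Sertoli markers was at 0. The 6 Leydig cell markers were at 55.3 to 58.0, 109.8 to 110.9, 15.4 to 17.4 and 56.4 to 64.7 FPKM, and the 5 peritubular myoid markers were lowest in 343wt (232 to 237 FPKM) and highest in 456wt (1015 to 1035). The 5 macrophage markers were at 10.4 to 11.2, 25.7 to 26.4, 5.67 to 6.28 and 19.9 to 21.3 FPKM, and the 5 endothelial markers at 14.9 to 15.8, 20.3 to 21.0, 13.1 to 13.9 and 30.7 to 32.9 FPKM. The 4 erythroid markers were at 19.4 to 22.9, 57.9 to 59.0, 62.8 to 69.2 and 120.1 to 127.1 FPKM. The sums of the Leydig, macrophage and endothelial markers were thus lowest in 444wt, where the MCM genes were highest. The endothelial marker Flt1, however, was lowest in 186wt (1.13 FPKM, against 1.30 in 444wt). The myoid and erythroid sums were higher in 444wt (637 and 66.7 FPKM) than in 186wt (502 and 21.5) and 343wt (235 and 58.5). The part of these cell types in the differences of the MCM genes was not tested.

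**Figure D5:**
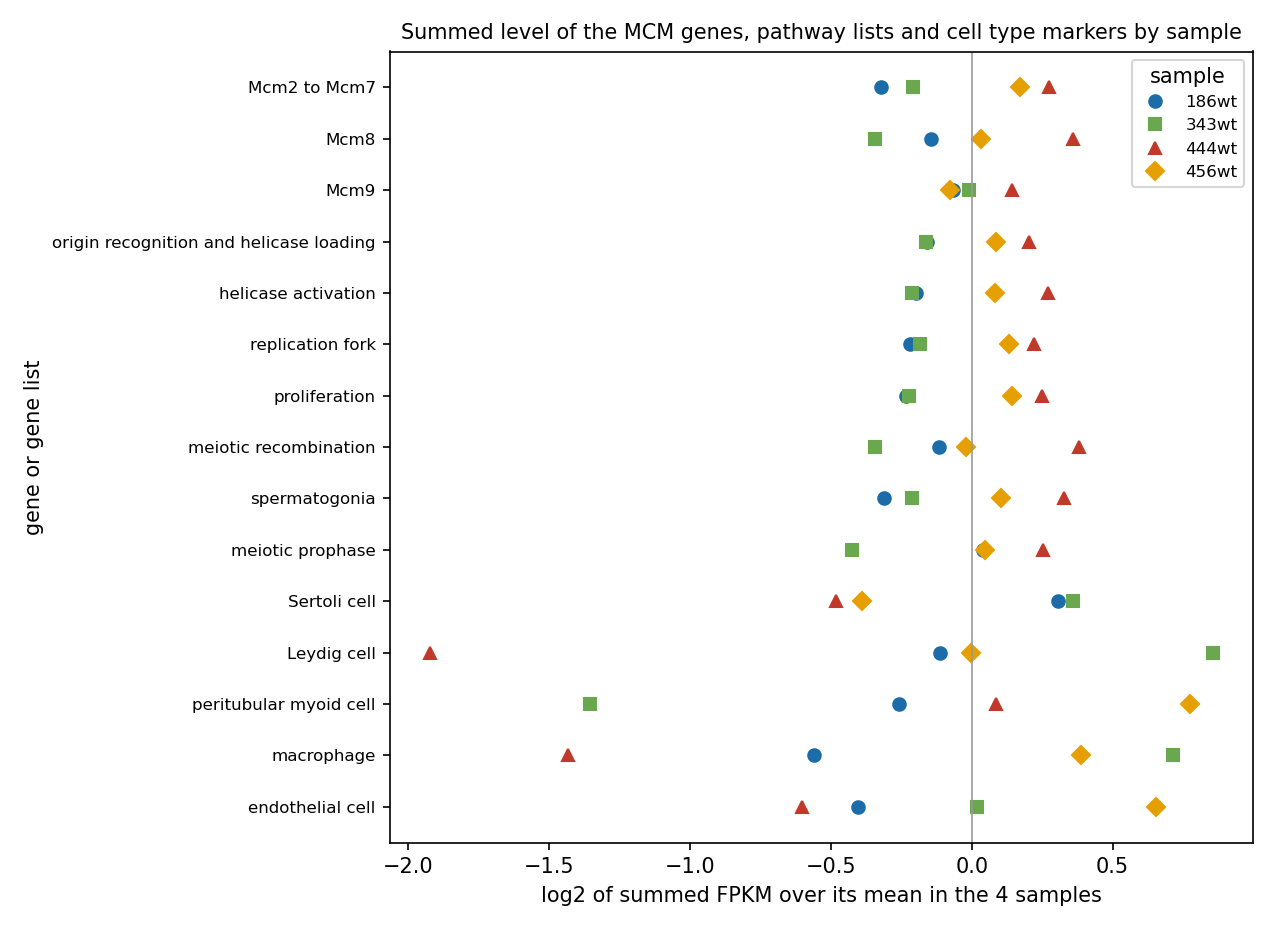
Log2 of the summed FPKM of Mcm2 to Mcm7, of Mcm8, of Mcm9, of pathway lists and of cell type markers in each sample over its mean in the 4 samples. Mcm2 to Mcm7, the replication lists and the spermatogonial markers are higher in 444wt and 456wt, the Sertoli markers are higher in 186wt and 343wt, and Mcm8 and the meiotic markers are lowest in 343wt.

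The genes whose pattern over the 4 samples was most like that of the ring, of Mcm8 and of Mcm9 were found among 14342 to 14347 genes of at least 1 FPKM on average, by the root mean square difference of the centred log2 values. With 4 points per gene many genes come close, and 199, 74 and 369 genes lay within 0.05 of the ring, Mcm8 and Mcm9. The 5 closest to the mean of the ring were Cbx2 (0.00769), Ect2, Gm5128, Map3k9 and Limk1. Cbx2 had 24.3, 26.1, 36.3 and 34.3 FPKM. The 5 closest to Mcm8 were Cenpm (0.00591), Rhov, Scml2, Dnahc2 and Gm13393, of which Scml2, a germline Polycomb gene, had 85.7, 76.5, 124.0 and 97.3 FPKM. The 5 closest to Mcm9 were Spopl, Rnf44, Mdm1, Mbtd1 and 5430416N02Rik, of which Rnf44 had 94.4, 97.0, 108.7 and 92.6 FPKM. Among the family itself, Mcm10 was at 0.06 from the ring, Mcm8 at 0.14 and Mcm9 at 0.21.

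The neighbours that start head to head with a member were highest in 444wt, as the member was, but lowest in another sample than it. Prkdc, beside Mcm4, had 7.69, 7.30, 11.1 and 9.14 FPKM, lowest in 343wt, whereas Mcm4 was lowest in 186wt. Trmt6, beside Mcm8, had 26.3, 27.7, 34.8 and 27.1 FPKM, lowest in 186wt, whereas Mcm8 was lowest in 343wt. Ap4m1, which overlaps the start of Mcm7, had 20.9, 18.7, 26.0 and 22.1 FPKM, lowest in 343wt, whereas Mcm7 was lowest in 186wt. Cops6, which overlaps the span of Mcm7 too, had 81.4, 93.8, 101.1 and 97.1 FPKM. Asf1a, which overlaps Mcm9, had 13.3, 14.6, 13.5 and 12.7 FPKM, higher than Mcm9 in each sample. The microRNA genes Mir25, Mir93 and Mir106b, which lie within Mcm7, were listed at 0 in all libraries of this mRNA table.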

How the data were processed

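RNA was extracted from enriched germ cells of 4 replicate samples, and mRNA libraries were sequenced as 100-bp paired reads. The table holds 3 columns for each sample, called libraries here. Whether they are separate preparations or repeat runs of 1 library is not given in the sources used here. The authors aligned the reads to the NCBI build 37 transcriptome with BowTie 0.12.9, discarded reads with 2 or more mismatches, and calculated FPKM per gene with RSEM 1.2.8. These values were deposited to 2 decimals for 37620 genes. RSEM shares reads that align to several genes among them, so related sequences can exchange reads, and FPKM gives a message relative to all others in its library.

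The FPKM of the 3 libraries of a sample were averaged, and means and SDs were taken over 4 samples. Differences between samples were tested on log2(FPKM + 0.1), which understates the change of low genes, using limma 3.58.1 (R 4.3.3) for genes whose 4-sample mean reached 0.1 FPKM, with Benjamini-Hochberg adjustment and a threshold of 0.05. Depth was estimated from the steps of FPKM in 333 genes with a single transcript, since the files hold no counts, and covers counting error only. The same-numbered libraries of different samples did not deviate together (median r = -0.007 over 18 pairs), so library numbers were not used as pairs. The scripts were tested on simulated data.

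The MCM genes and the lists were chosen with earlier results of these data known. Named in addition were the highest, the lowest and the smallest-p gene of each pathway list, both partners of Mcm8 and Mcm9, and the 5 genes closest in pattern. Mcmdc2 is 6030422M02Rik in the table by its RefSeq synonym. Hrob was taken as BC030867 from general knowledge, a match that the RefSeq synonyms used here do not list. Some other list genes were matched by older names. The alternatives tried were other pseudocounts, filters and scalings, medians for means, a fit without trend, a replicate block, and leaving out each library or sample.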

Additional observations from a re-analysis of the deposited data

Results flagged for a closer look

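Among 63 values read in the 4 samples (the members, the ratios between them and the other named genes), 2 had a sample far from the other 3, by the gap to its nearest neighbour divided by the whole range against the critical value of Dixon. The ratio of Mcm7 to Mcm4 was 2.24 in 343wt and 2.15 to 2.16 in the other samples, a gap of 0.926 of the range. Mcm3 was 94.1% of the mean of the ring subunits in 444wt and 100.0% to 100.2% in the others, a gap of 0.963. Chance puts about 1 in 20 independent sets of 4 past this limit. The 63 values are not independent, since the ratios share genes and some genes were picked for their pattern, so 2 of 63 cannot be judged against that rate.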

How the results depend on the processing

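Of 324 alternative values of the members in the pairs of samples, 318 kept their side of the threshold, 4 lost a call and 2 gained one. The sign turned in 1, which was called under neither setting (Mcm5 in 343wt against 186wt, 0.02 as deposited and -0.01 when scaled without mitochondrial genes). In 343wt against 186wt no member was called lower as deposited and 1, Mcm8, was when scaled without mitochondrial genes. The calls of the other 8 members over all 4 samples held in 192 of 192 alternatives, with adjusted p of at most 0.0085 in limma, while that of Mcm9 ran from 0.017 to 0.64. With a replicate block, which pairs the libraries by number without a basis in the labels, all 9 members were called between the samples, and 9 were called higher in 444wt against 186wt. When 1 library or sample was left out, the licensing helicase exceeded Mcm8 by 2.27 to 2.38 and Mcm9 by 3.37 to 3.53 on the log2 scale, and the ratio within the ring was 2.16 to 2.20. Genes that differed between the samples numbered 12107 of 20795, and 9848 to 11780 with a library or sample left out. Depth limits Mcm9 most, and the depth of single samples is an estimate. With 1 age and no second condition, nothing here separates stages of meiosis, and 4 samples cannot give an exact two-sided p under 1 in 8.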
